A study of Arabidopsis thaliana with 12 samples.

Results

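The mitochondrion-encoded loci of Arabidopsis thaliana are those with locus numbers that start with ATMG, and they were measured here in whole wild-type Col-0 seedlings on 12 single-colour Agilent arrays. The array carries 74 probes for 67 such loci. A locus was kept where a probe of it stood well above background on every array of 1 or more treatments, which left 59 loci, the members described here, out of 23549 genes tested. The other 8 loci passed in no treatment, and 3 of them (ATMG00870, ATMG00880 and ATMG01400) were above background on no array. Seedlings of 4 treatments, with 3 arrays each, were compared: the solvent alone (DMSO), and 3 indazole compounds supplied in the medium at 2.5 µM. The compounds carry a bromine at position 3 (3-bromoindazole, 3BRO), a nitro group at position 7 (7-nitroindazole, 7NIT), or both (3-bromo-7-nitroindazole, 3B7N). All seedlings had 3 days of dark and cold and then 4 days of continuous blue light, whose fluence rate was 10 µmol per square metre per second. Nothing in the labels tells whether replicates are separate cultures, so the p-values cover the spread among these arrays, possibly a technical one. The cry1cry2 genotype named by the series was not analysed here.

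Plant mitochondria keep a small genome of their own. It encodes core subunits of the respiratory chain complexes and of ATP synthase, proteins of cytochrome c maturation, some ribosomal proteins, ribosomal and transfer RNAs, and many open reading frames of unknown function. The other proteins of the organelle, including its RNA polymerases, its DNA polymerases and the alternative oxidases, are encoded in the nucleus. Mitochondrial mRNAs of plants are not stably polyadenylated, whereas the labelling kit used here is primed with oligo-dT. The files do not pair ATMG numbers with gene names, and no gene name or role is given for them here. Nuclear genes carry RefSeq symbols.

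Levels are log2 processed signals minus the 75th percentile of the same array, and a level is compared only with levels of the same probe. On each array 77.2% to 84.7% of probes were well above background. The 75th percentile itself was higher on the arrays of the chemicals, from 1768 to 2205 signal units with DMSO to 3318 to 3761 with 3B7N. All 3 DMSO arrays lay on slide 1 with 3BRO replicate 1, and these 4 arrays were scanned on another day than the rest. Slide 2 held 3BRO replicates 2 and 3 with 3B7N replicates 1 and 2, and slide 3 held the 7NIT arrays with 3B7N replicate 3, so slide and treatment overlap in part. Markers of roots and shoots were present, as whole seedlings require: all 5 root and root hair markers and all 3 shoot markers were well above background on all arrays of every treatment.

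The clearest feature of the mitochondrion-encoded loci was a shared swing from array to array within a treatment. With DMSO the median level of the 59 loci was -3.70, -3.51 and -3.03 on replicates 1, 2 and 3. With 3BRO it was -4.85, -4.45 and -3.56, and with 7NIT it was -3.70, -4.41 and -4.25. With 3B7N it was -3.67, -4.84 and -4.13. Replicates of a treatment therefore differed by 0.68 with DMSO, 1.29 with 3BRO, 0.71 with 7NIT and 1.17 with 3B7N on the log2 scale, while the groups' ranges overlapped one another.

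Nearly the whole set moved in the same order. Replicate 3 was the highest DMSO array for 53 of the 59 loci, and replicate 3 was the highest 3BRO array for 56 of them. Replicate 1 was the highest for 54 with 7NIT and for 53 with 3B7N, and replicate 2 was the lowest for 50 with 7NIT and for 52 with 3B7N. Over all genes tested no single array was the highest of its treatment for more than 41.8% or the lowest for more than 41.8%. The mean correlation between pairs of members within treatments was 0.71, against 0.006 for pairs among all genes, 0.20 for 108 nuclear genes of mitochondrial proteins and RNA handling, and 0.46 for the 66 plastid-encoded loci. These correlations describe arrays that share scaling and labelling, and no test was made of them.

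**Figure D1:**
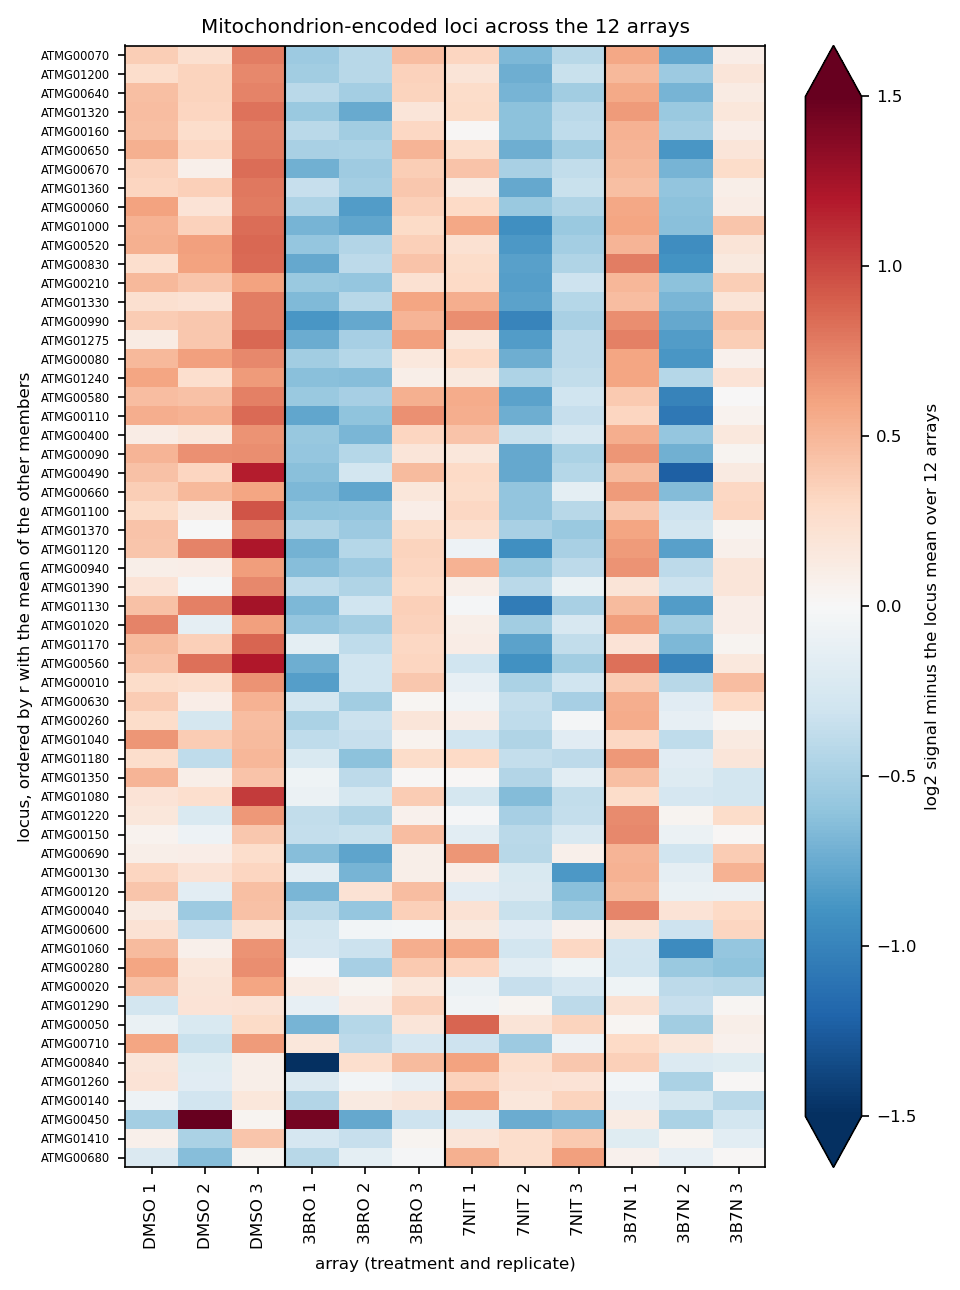
Each row is 1 of the 59 mitochondrion-encoded loci and each column 1 array, coloured by the log2 signal minus the mean of that locus over the 12 arrays. Rows are ordered by their correlation with the other members, and most rows share the same red (high) and blue (low) columns, with DMSO replicate 3 high and 7NIT replicate 2 and 3B7N replicate 2 low.

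The swing also set the spread that any treatment difference had to exceed. The median range over 3 arrays of a treatment was 0.52 for the members with DMSO, 0.88 with 3BRO, 0.81 with 7NIT and 0.88 with 3B7N. The same ranges for all genes were 0.40, 0.42, 0.35 and 0.47. The median half-width of a member's 95% confidence interval was 0.70 on the log2 scale, against 0.45 for all genes, so a difference of less than about that size was not resolved for a typical member.

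How well a locus followed the common profile varied. The correlation of a member with the mean of the others over the 12 arrays had a median of 0.93, and 34 loci were over 0.9. ATMG00070 was at the top with 0.99, followed by ATMG01200. At the other end, 9 loci were under 0.5, and ATMG00680 was the lowest at -0.03. Those 9 were ATMG00050, ATMG00140, ATMG00450, ATMG00680, ATMG00710, ATMG00840, ATMG01260, ATMG01290 and ATMG01410. Within treatments the median r was 0.94 and 4 loci were under 0.5, so a low r over the 12 arrays need not mean that the swing was absent. ATMG00050 had 0.94 and ATMG00680 had 0.65 within treatments. ATMG00840 was well above background on no DMSO array and ATMG01290 on 1 of 3, so part of their variation lies near background.

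The genes outside the set with the most similar profile lay in 1 stretch of chromosome 2. By correlation with the mean of the centred members over the 12 arrays, the 10 most similar genes were AT2G07773, AT2G07698, AT2G07747, AT2G07674, AT2G07699, AT2G07676, AT2G07725, AT2G07767, AT2G07707 and AT2G07733, with r from 0.979 to 0.985. All 10 are among loci AT2G07660 to AT2G07840. That part of the chromosome is known for a large nuclear insertion of mitochondrial DNA, and a probe cannot tell transcripts of near-identical copies apart. The files do not say which of these loci derive from it.

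Of the 78 measured loci in that stretch, 57 had r over 0.8 and the range was -0.66 to 0.99, with a median of 0.89. AT2G07698, the second most similar, shows the shared pattern in its levels, which were 3.29, 3.25 and 3.69 with DMSO and 2.47, 2.52 and 3.33 with 3BRO. They were 3.34, 2.24 and 2.69 with 7NIT and 3.34, 2.46 and 3.08 with 3B7N. As for most members, the highest array of each treatment was DMSO 3, 3BRO 3, 7NIT 1 and 3B7N 1. Among all 23490 genes outside the set, 157 had r over 0.8. Among plastid-encoded loci, 2 of 66 did.

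**Figure D2:**
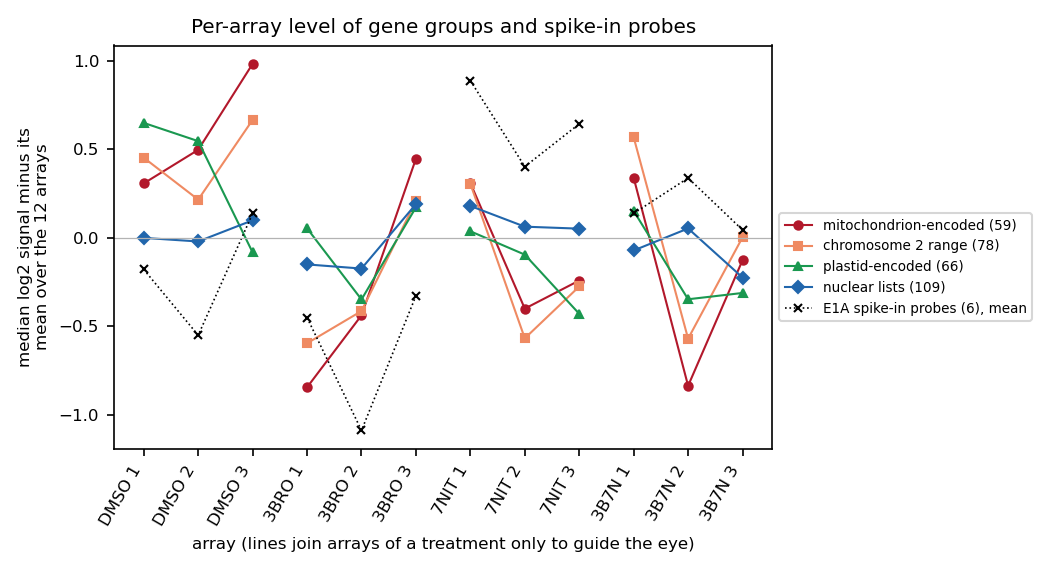
The median log2 signal of each gene group on each array is plotted after subtracting its mean over the 12 arrays, with the mean of 6 bright E1A spike-in probes as crosses. The mitochondrion-encoded loci and the chromosome 2 range have the same highest array in every treatment. The median of all nuclear lists pooled is highest on those arrays too with DMSO, 3BRO and 7NIT, but on replicate 2 with 3B7N. It ranges over 0.12 to 0.36 within a treatment.

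The spike-in probes, which measure RNA added from outside the plant, moved with the members in part. Relative to the 75th percentile their mean log2 was 0.09, -0.28 and 0.41 with DMSO and -0.18, -0.82 and -0.06 with 3BRO. It was 1.16, 0.67 and 0.91 with 7NIT and 0.41, 0.61 and 0.31 with 3B7N. The array with the highest spike-in mean was also the one with the highest member median in DMSO, 3BRO and 7NIT, whereas in 3B7N it was the one with the lowest. Taken relative to the spike-ins, the member median still ranged over 0.56 with DMSO, 1.17 with 3BRO, 0.31 with 7NIT and 1.37 with 3B7N. The spike-ins were higher on every 7NIT array than on any other array, and scaling to them moved the median of all genes to -0.39 for 3B7N, 0.40 for 3BRO and -0.81 for 7NIT against DMSO. Since that scaling shifts all genes of an array alike, it leaves the difference between the members and all genes as it was, at -0.38, -0.61 and -0.68. The part of labelling and scaling in the swing was not tested further.

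Each chemical was compared with DMSO to ask which loci differ from the solvent control, and the chemicals were compared in pairs to ask what the bromo and the nitro group each change. The 6 comparisons share arrays, so their values are not independent. In limma's test across all genes with Benjamini-Hochberg adjustment, 3 of the 59 members fell with 3B7N against DMSO and 0 rose, which is 5.08% of members beside 15.7% of all genes tested (10.2% lower). With 3BRO and with 7NIT 0 members passed, beside 0.00425% and 0.0255% of all genes. Against 3BRO, 3B7N gave 0 (7.52% of all genes passed), and 1 member was lower in 3B7N than in 7NIT (18.6%, of them 12.5% lower). Between 7NIT and 3BRO 0 members passed (0.0212%).

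Most members had lower means with each chemical than with DMSO, nearly all without passing the threshold. The median log2 difference of the 59 loci was -0.40 with 3B7N, with 51 loci below 0. Without 3B7N replicate 2 it was -0.11. It was -0.63 with 3BRO, with 56 below 0, and -0.65 with 7NIT, with 53 below 0. With normexp background correction the 7NIT value was -0.18, or -0.30 relative to the median of all genes. The medians over all genes were -0.02, -0.02 and 0.03. At an unadjusted p under 0.05 there were 7 loci with 3B7N and 17 with 3BRO, all lower, and with 7NIT 22 lower and 1 higher. Over all genes that limit was passed by 31.1% with 3B7N, 3.77% with 3BRO and 7.89% with 7NIT. Because the loci move together, these counts are not separate pieces of evidence, and the difference is of the order of the swing between replicates: the pooled SD of the member median between arrays of a treatment was 0.51.

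Between the chemicals the set lay closer together. The median difference was 0.24 for 3B7N against 3BRO, with 47 loci above 0, and 0.30 for 3B7N against 7NIT, with 48 above 0. For 7NIT against 3BRO it was -0.02, with 27 above 0 and 32 below. The first 2 values were both 0.03 without 3B7N replicate 1. With normexp they were 0.037 and -0.44, and 7NIT against 3BRO was 0.47. 3B7N differs from 3BRO by the nitro group and from 7NIT by the bromo group, and the intervals of nearly all members included 0: 3 loci against 3BRO, and 9 against 7NIT, had an unadjusted p under 0.05, beside 22.3% and 34.2% of all genes.

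**Figure D3:**
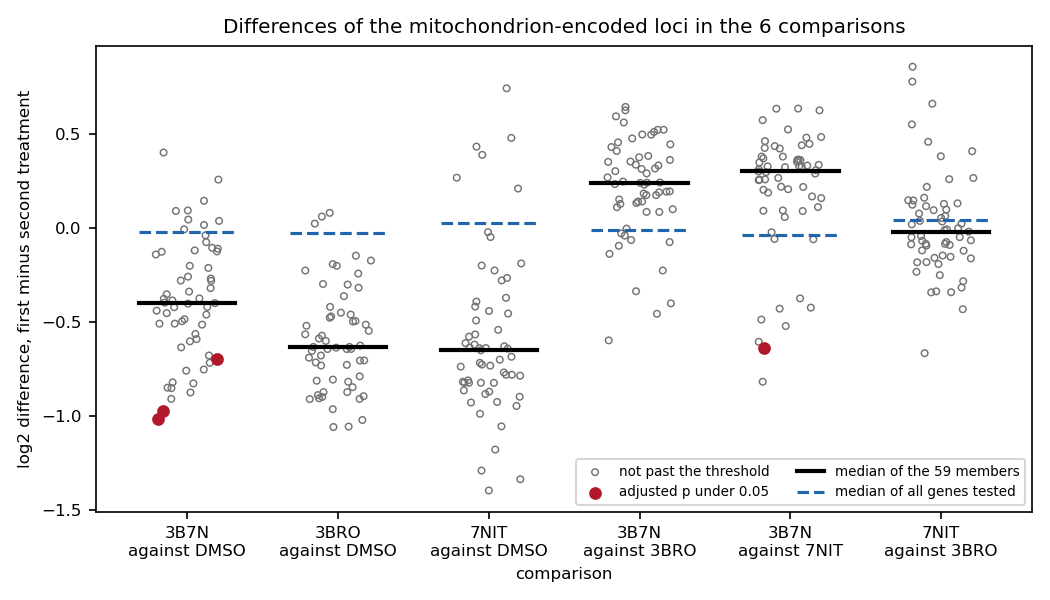
Points are the log2 differences of the 59 loci in each comparison, filled where the adjusted p was under 0.05, with the median of the members as a solid line and that of all genes as a dashed line. The solid line lies below the dashed line in all 3 comparisons with DMSO, and 4 points in all are filled.

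Values within slides differed in size from the pooled ones. On slide 1, 3BRO replicate 1 had a member median 0.91 below the 3 DMSO arrays, with 58 of 59 loci lower. On slide 2, which held 2 arrays each of 3B7N and 3BRO, the median difference was 0.01 with 31 loci above 0. On slide 3, 3B7N replicate 3 lay 0.37 above the 7NIT arrays, with 49 loci above 0. No slide held both DMSO and 7NIT or both DMSO and 3B7N. With slide as a block the median against DMSO was -0.81 for 3B7N, -0.91 for 3BRO and -1.20 for 7NIT, and these rest on 3BRO replicate 1 as the link between slide 1 and the others.

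ATMG00280 was one of the 3 loci that fell with 3B7N. Its level was 3.60, 3.18 and 3.71 with DMSO and 2.71, 2.46 and 2.40 with 3B7N. With 3BRO it was 3.02, 2.52 and 3.40, and with 7NIT it was 3.33, 2.86 and 2.95. Every 3B7N array lay below every DMSO array, while the 3BRO and 7NIT ranges each overlapped with that of DMSO. The log2 difference from DMSO was -0.97 (SE 0.23, limma adjusted p = 0.018), a 1.96-fold lower signal. It was not past the threshold without DMSO replicate 1 (adjusted p = 0.065), DMSO replicate 3 (0.064) or 3B7N replicate 3 (0.054), nor with slide (0.35) or scan day (0.30) as a block.

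ATMG00280 had r of 0.61 to the other members over the 12 arrays, and 0.74 within treatments. Among genes outside the set, looked up after its values were seen, the most similar were AT2G07732 of the chromosome 2 stretch (r = 0.984) and the plastid-encoded loci ATCG00490 (r = 0.961) and ATCG01240 (r = 0.959). AT2G07732 fell by 0.87 on the log2 scale with 3B7N against DMSO (SE 0.23, limma adjusted p = 0.030). ATCG00490 fell by 0.82 (SE 0.23, adjusted p = 0.036), and ATCG01240 fell by 0.48 (SE 0.14, adjusted p = 0.046). Plant mitochondrial genomes are known to hold pieces of plastid DNA, and whether the probes of these loci bind the same transcripts was not tested. Of the 66 plastid-encoded loci 23 fell with 3B7N against DMSO, which is 34.8%, beside 10.2% of all genes lower.

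ATMG01060 fell with 3B7N as well. Its level was -0.69, -1.09 and -0.50 with DMSO and -1.46, -2.11 and -1.75 with 3B7N. With 3BRO it was -1.42, -1.49 and -0.62, and with 7NIT it was -0.58, -1.44 and -0.85. The 3B7N arrays lay below all DMSO arrays, and 3B7N replicate 1 lay between the 3BRO replicates 1 and 2. The log2 difference from DMSO was -1.01 (SE 0.29, limma adjusted p = 0.041), and adjusted p ran from 0.0074 to 0.24 over the alternatives. The authors' deposited table lists its probe with an absolute fold of 2.01 and a corrected p of 0.0406, the only member probe among 1779 probes listed there for 3B7N against DMSO. That listing comes from the same arrays and is not separate evidence. ATMG00280 and ATMG00020, which are not listed there, had a 1.96-fold and a 1.62-fold lower signal here.

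The call for ATMG01060 was the least firm of the 3, being absent under 9 of 23 alternatives. It was lost without DMSO replicate 1 (adjusted p = 0.11), DMSO replicate 3 (0.12), 7NIT replicate 3 (0.058), 3B7N replicate 2 (0.12) or 3B7N replicate 3 (0.080), with the array median as scale (0.060), with normexp background correction (0.070), and with slide (0.24) or scan day (0.21) as a block. Among the members, ATMG01060 and ATMG00280 were each other's closest match, with r of 0.91.

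ATMG00020 fell with 3B7N too, and the scaling decides the value, which also bears on ATMG00280 and ATMG01060. Its level was 7.90, 7.66 and 8.05 with DMSO, 7.58, 7.51 and 7.63 with 3BRO, 7.37, 7.11 and 7.22 with 7NIT, and 7.4, 7.08 and 7.05 with 3B7N. The log2 difference of 3B7N from DMSO was -0.70 (SE 0.14, limma adjusted p = 0.0095), and that of 7NIT was -0.64 (adjusted p = 0.31). The DMSO arrays were above all 3BRO, 7NIT and 3B7N arrays.

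Before scaling, the probe's signal was nearly level. It was 469784, 446336 and 468169 signal units with DMSO and 559843, 507467 and 493563 with 3B7N, which is 0.17 higher on the log2 scale with 3B7N, while the 75th percentile was 0.87 higher. The same percentile is subtracted from every locus, so the differences of ATMG00280 (-0.97) and ATMG01060 (-1.01) depend on it as well. Both are close in size to the 0.87 rise of the 75th percentile. Before scaling, the signals of these loci therefore also differed little between DMSO and 3B7N. The ATMG00020 probe was the brightest non-control spot on 6 of the 12 arrays, although no member spot was marked as saturated. Of 23 genes with a mean level over 7, all 23 had a negative difference with 3B7N and 18 passed the threshold, with a median of -0.61. Genes outside the set with the most similar profile were CAB1, RBCS1B and RBCS3B, nuclear genes of the light-harvesting antenna and of Rubisco's small subunit, with r from 0.973 to 0.979.

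Quantile normalization, which gives all arrays the same distribution, reduced the difference of ATMG00020 to -0.05 (adjusted p = 0.73). That method gives spots of equal rank equal values, and this probe was at or near the brightest non-control spot on every array. A small difference was therefore set by the method, and it cannot tell whether the level of the locus changed. Another bright probe of the locus gave -0.59. A dim probe gave -0.17 and followed the common swing with r of 0.94, against 0.60 for the brightest. With the mean of the 3 probes in place of the brightest the difference was -0.48 (adjusted p = 0.16). The call was also lost with slide (0.27) or scan day (0.22) as a block and with only the 6 arrays of the groups compared (0.062). The part of the top of the signal range in this difference was not tested.

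ATMG00140 was the 1 member lower in 3B7N than in 7NIT. Its level was -3.98, -4.41 and -4.25 with 7NIT and -4.71, -4.84 and -4.99 with 3B7N, with no overlap. With DMSO it was -4.66, -4.88 and -4.41, and with 3BRO it was -5.02, -4.45 and -4.40. Both sets overlapped with those of 3B7N. The log2 difference of 3B7N from 7NIT was -0.63 (SE 0.20, limma adjusted p = 0.047), the opposite sign to the member median of 0.30. It stayed past the threshold under 9 of 23 alternatives, and adjusted p ran from 0.023 to 0.71. Left-out arrays that ended the call were each 7NIT replicate 1 (0.17) and 3 (0.11), each 3B7N replicate (0.066, 0.085 and 0.12), DMSO replicates 1 (0.064) and 2 (0.052), and 3BRO replicate 2 (0.057).

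**Figure D4:**
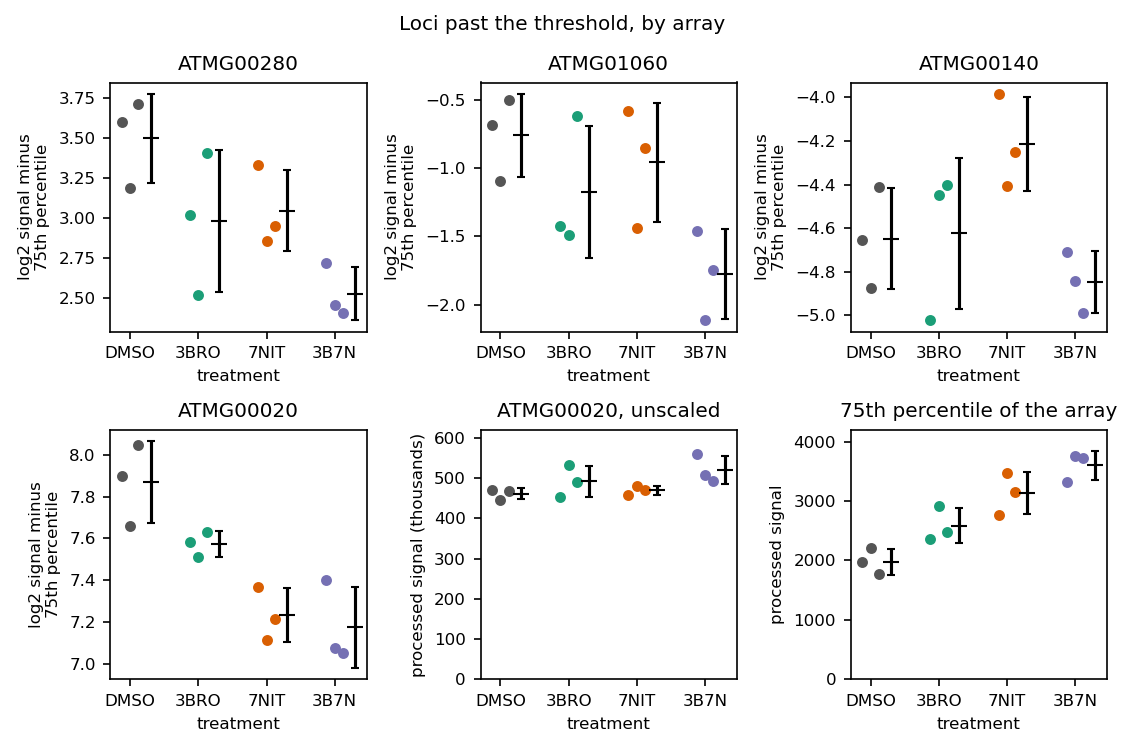
Points are single arrays and bars the mean with its SD (n = 3) for the 4 loci past the threshold, as log2 signal minus the 75th percentile, and, for ATMG00020, as signal before scaling beside the 75th percentile of each array. ATMG00280 and ATMG01060 are lowest with 3B7N, ATMG00140 is highest with 7NIT, and the unscaled signal of ATMG00020 is nearly level while the 75th percentile climbs. The other loci are shown after scaling only.

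The lowest members with 3BRO and with 7NIT were the same 3 loci, ATMG00560, ATMG01120 and ATMG01130. These comparisons share the DMSO arrays. For ATMG00560 the levels were -0.69, -0.29 and 0.08 with DMSO, -1.85, -1.42 and -0.80 with 3BRO, -1.42, -2.02 and -1.64 with 7NIT and -0.29, -2.11 and -0.96 with 3B7N. All 3BRO and 7NIT arrays were below all DMSO arrays, while 3B7N replicate 1 lay within the DMSO range. Its log2 difference was -1.05 with 3BRO, -1.39 with 7NIT and -0.82 with 3B7N, each with SE 0.42, and adjusted p of 1, 0.48 and 0.21 in limma's test.

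ATMG01120 had means of -1.38 ± 0.40 (SD, n = 3) with DMSO, -2.43 ± 0.54 with 3BRO, -2.66 ± 0.42 with 7NIT and -2.20 ± 0.74 with 3B7N. ATMG01130 had means of -3.46 ± 0.41, -4.48 ± 0.52, -4.79 ± 0.52 and -4.36 ± 0.67 in the same order. Both had no overlap with DMSO for 3BRO and 7NIT, and did overlap for 3B7N. Groups did not overlap for 20 members with 3BRO, all lower, beside 5.84% of all genes lower without overlap. With 7NIT it was 26 lower and 3 higher, beside 8.05% and 9.92%. With 3B7N it was 8 lower, beside 19.6%.

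A few members stood on the other side of 0. ATMG00680 had levels of -6.95, -7.37 and -6.70 with DMSO and -6.20, -6.47 and -6.12 with 7NIT, with no overlap. The difference was 0.74 (SE 0.18, unadjusted p = 0.0020, limma adjusted p = 0.35), and scaling to the spike-ins turned it to -0.10. ATMG00050 was 0.48 (SE 0.27) and ATMG00140 0.43 (SE 0.20) above DMSO with 7NIT, neither past the threshold.

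With 3B7N the 3 highest members were ATMG00040 at 0.40 (SE 0.31), ATMG00680 at 0.26 and ATMG01220 at 0.15 (SE 0.26). The lowest, besides ATMG01060 and ATMG00280, was ATMG01130 at -0.91 (SE 0.39). With 3BRO the highest were ATMG00680 at 0.08, ATMG01290 at 0.06 and ATMG00140 at 0.02. None of these passed the threshold, and normexp background correction turned the sign of the 3 positive values with 3B7N and of the 3 with 3BRO.

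Further loci were taken not for their values but as the lowest measured locus number in each of several lists of mitochondrion-encoded loci. Against DMSO, 3B7N gave -0.51 (SE 0.37) for ATMG00060, -0.68 (SE 0.36) for ATMG00080, -0.87 (SE 0.46) for ATMG00110 and -0.46 (SE 0.30) for ATMG00160. It gave -0.75 (SE 0.39) for ATMG00520, -0.51 (SE 0.35) for ATMG00640 and -0.26 (SE 0.31) for ATMG00010. All of these lay below 0 and none passed the threshold. ATMG00020, described above, is also the lowest measured locus number of such a list, and it did pass. The levels of ATMG00110 show the spread involved: -3.70, -3.73 and -3.39 with DMSO against -3.93, -5.32 and -4.19 with 3B7N do not overlap, yet the 3B7N arrays span 1.39.

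Besides ATMG00020, 5 loci had more than 1 passing probe, and for 4 of them the probes gave differences of the same sign. For ATMG00090 the 2 probes gave -0.63 and -0.69 with 3B7N against DMSO, and for ATMG00060 they gave -0.51 and -0.72. The probes of ATMG00580 gave -0.76 and -1.14, and those of ATMG01040 gave -0.48 and -0.16. ATMG00690 split in sign, with 0.05 for the brighter and -0.29 for the other probe.

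Nuclear genes for mitochondrial functions were read beside the organelle's own genes from lists of respiratory complex subunits, alternative respiration, the mitochondrial stress response, and mitochondrial DNA and RNA handling. Of 109 measured, 5 rose and 8 fell with 3B7N against DMSO, which is 11.9% beside 15.7% of all genes. With 3BRO and with 7NIT 0 passed. The median of all these genes was -0.16 with 3B7N, -0.09 with 3BRO and 0.07 with 7NIT, so these medians lay nearer to 0 than those of the mitochondrion-encoded loci.

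The alternative respiration list holds alternative oxidases and NAD(P)H dehydrogenases, which carry electrons around the proton-pumping complexes, and also PUMP1, an uncoupling protein, and the cytochrome c genes CYTC-1 and CYTC-2. It held 5 of the 13, from 14 measured (35.7%, beside 15.7% of all genes). AOX2, an alternative oxidase, had levels of -7.69, -7.53 and -8.39 with DMSO and -5.29, -3.91 and -4.85 with 3B7N. With 3BRO it was -8.00, -7.99 and -7.33, and with 7NIT -8.37, -7.30 and -8.32. It rose by 3.19 with 3B7N against DMSO (SE 0.40, limma adjusted p = 0.00086), though it was well above background on 2 of 3 DMSO arrays and normexp background correction reduced the difference to 0.65 (adjusted p = 0.53). With slide or scan day as a block it was 2.93 (adjusted p = 0.093) or 2.85 (adjusted p = 0.081). It was also higher in 3B7N than in 3BRO by 3.09 (adjusted p = 0.0027) and than in 7NIT by 3.31 (adjusted p = 0.00072).

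NDA1, an internal alternative NAD(P)H dehydrogenase, moved the other way. Its levels were 3.26, 2.77 and 3.09 with DMSO, 2.0, 2.44 and 2.52 with 3BRO, 3.41, 3.29 and 3.18 with 7NIT and 1.45, 1.86 and 0.72 with 3B7N. It fell by 1.70 with 3B7N against DMSO (SE 0.26, adjusted p = 0.0023), and was past the threshold under all 23 alternatives. Its relative NDA2 rose by 0.67 (SE 0.14, adjusted p = 0.0081). That call was lost in 3 of 23 alternatives, among them slide as a block (adjusted p = 0.29), with adjusted p up to 0.48. AOX1D, another alternative oxidase, rose by 0.75 (SE 0.22, adjusted p = 0.041), but the call was lost in 13 of 23 alternatives and its sign turned with normexp background correction. NDC1, a further alternative dehydrogenase, fell by 0.46 (SE 0.13, adjusted p = 0.040).

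Among the subunit lists, SDH1-2, a second copy of the flavoprotein subunit of succinate dehydrogenase (complex II), fell most. Its levels were -2.73, -2.77 and -2.94 with DMSO and -3.95, -3.81 and -4.05 with 3B7N. The difference was -1.12 (SE 0.17, limma adjusted p = 0.0022), past the threshold under all 23 alternatives, and 3B7N was also lower than 3BRO (adjusted p = 0.017) and 7NIT (adjusted p = 0.0011). Of 16 complex I genes 1 passed, FRO1, a complex I subunit, at -0.49 (SE 0.15, adjusted p = 0.045). Of 14 complex III genes AT5G40810 fell by 0.42 and AT5G25450 rose by 1.40 (SE 0.38, adjusted p = 0.031). Of 14 complex IV genes COX15 fell by 0.44, and of 10 complex V genes AT3G46430 fell by 0.44. Of these changes, the call was lost in 16 of 23 alternatives for FRO1 and AT5G40810, in 9 for AT5G25450, in 20 for COX15, in 19 for AT3G46430 and in 17 for NDC1.

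The DNA and RNA handling list, which holds organelle polymerases, editing and splicing factors and DNA-binding proteins, had 1 of 21 past the threshold with 3B7N against DMSO. POLGAMMA1, an organelle DNA polymerase, had levels of 0.51, 0.28 and 0.41 with DMSO and -0.44, -0.42 and -0.48 with 3B7N. It fell by 0.85 (SE 0.16, limma adjusted p = 0.0063), and with slide as a block the difference was -0.39 (adjusted p = 0.45). The call was lost in 2 of 23 alternatives. Against 7NIT, 8 of the 21 were lower with 3B7N (38.1%, beside 12.5% of all genes lower), and 20 of 21 lay below 0, with a median of -0.46. The median of the mitochondrion-encoded loci in that comparison was 0.30. In the stress response list 1 of 9 passed with 3B7N against DMSO, UGT74E2, a glucosyltransferase, which rose by 1.12 (SE 0.18, adjusted p = 0.0023). Its call was lost in 3 of 23 alternatives, among them slide as a block (adjusted p = 0.13).

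**Figure D5:**
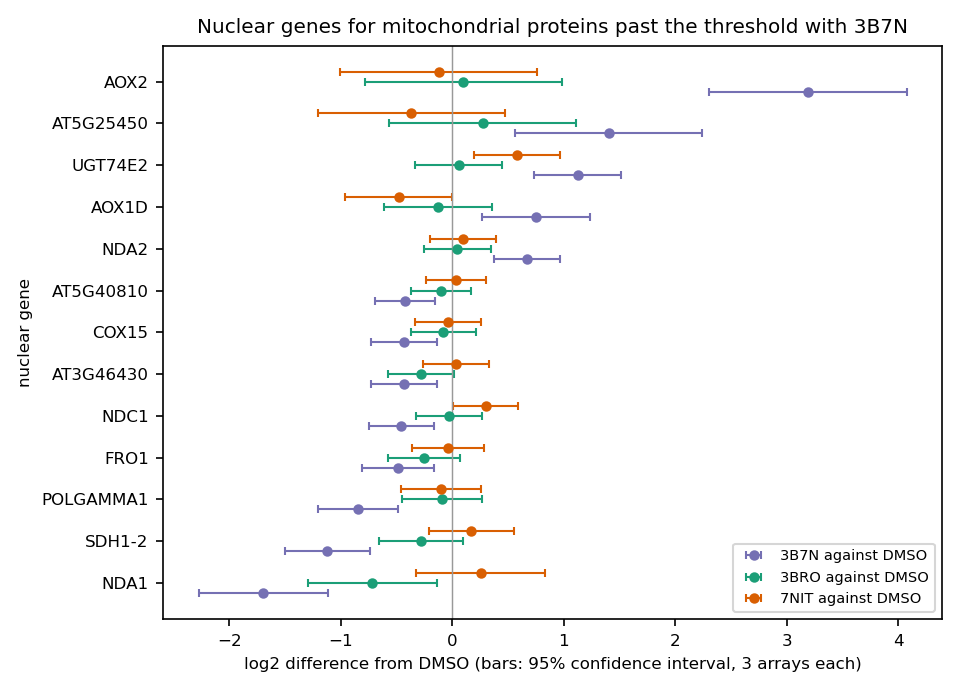
Points are log2 differences from DMSO of the 13 nuclear genes that passed the threshold with 3B7N, for each chemical, with 95% confidence intervals as bars. The 3B7N intervals lie away from 0 for all 13, which their choice by the threshold in that comparison fixed beforehand. AOX2 and NDA1 have the largest differences in either direction.

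The tissue markers moved with 3B7N too. Of 5 root and root hair markers 4 fell against DMSO, among them PRP3 by 1.81 (limma adjusted p = 0.036) and EXPA18 by 1.74 (adjusted p = 0.012), and EXPA7 was at -1.48 (adjusted p = 0.063). Their summed log2 level, which is nearly all PYK10, was 6.75 to 7.05 with DMSO, 6.63 to 6.85 with 3BRO, 6.45 to 6.61 with 7NIT and 6.23 to 6.43 with 3B7N. Without PYK10 the other 4 summed to 0.40 to 0.78, -0.73 to 0.85, -0.57 to 0.57 and -1.07 to -0.62 in the same order. Of the shoot markers, RBCS1A fell by 0.81 (adjusted p = 0.010) and CAB1 by 0.53 (adjusted p = 0.029), and LHCB3 was at -0.28 (adjusted p = 0.50). For LHCB3 and CAB1 the summed level was 8.05 to 8.49, 7.86 to 8.19, 7.82 to 8.04 and 7.60 to 7.91, without RBCS1A, which has no value on DMSO replicate 1. RBCS1A and CAB1 are among the 23 genes with a mean level over 7, all of which had a negative difference with 3B7N. The part of the signal range in their falls was not tested. In whole seedlings a smaller share of a tissue and less RNA per cell cannot be told apart, and the part of the tissue markers in the results above was not tested.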

How the data were processed

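Cy3-labelled cRNA from total RNA was hybridised to 12 arrays. The authors deposited each array's spot intensity values from the scanner software, Agilent Feature Extraction 10.7.3.1 according to the submitters' processing notes. The processed signal is linear and background-corrected, per the file headers. Another table that the authors deposited gives linear fold values (ratios without direction) and corrected p-values.

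From the log2 of that signal the 75th percentile of the array was subtracted. Control spots and spots with a non-uniformity or population outlier mark were dropped, and the remaining spots of each probe averaged. A probe entered if it was well above background on all 3 arrays of a treatment (35734 of 43603 probes). The brightest passing probe stood for a locus, which gave 23549 genes, 23298 of them in the RefSeq gene list of assembly TAIR10.1 used for symbols. Of the genes, 185 lacked a value on an array and were fitted without it, no member among them. Signals of 3BRO replicate 2 are given to 3 significant digits.

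All 12 arrays entered a single fit in limma 3.58.1 (lmFit and eBayes, R 4.3.3), with Benjamini-Hochberg adjustment over all genes in each of 6 comparisons and a threshold of 0.05. The number of arrays limits the precision. The fit was tested on simulated data in which genes varied independently of one another. That simulation held no shared swing and no effect of slide or scan day. Members named are those past the threshold, the 3 highest and 3 lowest per chemical against DMSO, and the measured member of lowest locus number in each role list and among the remaining loci. Nuclear genes named are those past the threshold, at most 3 each way per list, and the 10 genes most like the members are named too. Loci named for several probes, for their correlation with the members or for likeness to a single member were chosen after their values were seen. The members and all lists were chosen with earlier results of these data known. Alternatives were normexp background correction (on the median signal and median background, offset 50), quantile normalization, scaling to the array median, other filters on dim probes, the mean of a locus's probes, slide, scan day or replicate number as a block, the 6 arrays of each comparison alone, and each array left out. Scaling to the E1A spike-in spots, and all alternatives for nuclear genes, were added after seeing the data.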

Additional observations from a re-analysis of the deposited data

How the results depend on the processing

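The 3 calls for 3B7N against DMSO depended on how the arrays were treated. With slide or with scan day as a block 1 member passed, ATMG00840, and none of the 3 loci did. Both blocks also gave 1 call, again ATMG00840, for 3BRO against DMSO, beside 0.183% of all genes with slide and 0.136% with scan day. Scan day gave 1 for 7NIT against DMSO, beside 0.408% of all genes. No DMSO array had ATMG00840 well above background. The blocks rest on 3BRO replicate 1, the array that shares slide and scan day with DMSO. On that array the level of ATMG00840 was -10.35, against -8.07 and -7.84 on 3BRO replicates 2 and 3. With DMSO it was -8.13, -8.50 and -8.22. The part of that array in the calls was not tested. For 3B7N against DMSO, 769 of all genes (3.27%) passed with the slide block and 609 (2.59%) with the scan day block. Without a block it was 3697, with normexp 1728 and with only the 6 arrays 1902. For 3B7N against 7NIT the single call became 0 with normexp, with the array median, with no filter on dim probes and with the slide block.

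Scaling to the E1A spike-ins, added after seeing the data, shifts every gene of an array alike. It gave 6 called members for 3B7N against DMSO (13.7% of all genes), 53 for 7NIT against DMSO (53.2%), 9 for 3B7N against 3BRO (48.7%), 2 for 3B7N against 7NIT (5.5%) and 57 for 7NIT against 3BRO (91.2%). The member median then was -1.49 for 7NIT against DMSO, -0.55 for 3B7N against 3BRO and -1.28 for 7NIT against 3BRO. With the slide block it was -1.20 for 7NIT against DMSO, and with normexp it was -0.44 for 3B7N against 7NIT, against 0.30 as reported.

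With 1 array left out, called members ranged from 1 to 3 for 3B7N against DMSO and from 0 to 2 for 3B7N against 7NIT, and were 0 in the other comparisons. Without DMSO replicate 1, DMSO replicate 3 or 3B7N replicate 3, ATMG00020 alone passed against DMSO. The member median ranged from -0.63 to -0.11 for 3B7N, -0.92 to -0.49 for 3BRO and -0.85 to -0.51 for 7NIT against DMSO. It ranged from 0.03 to 0.53 for 3B7N against 3BRO, 0.03 to 0.58 for 3B7N against 7NIT and -0.24 to 0.26 for 7NIT against 3BRO.

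Single values that turned in sign follow. For 3B7N against DMSO, normexp gave -0.31 for ATMG01220, -0.45 for ATMG00680, -0.22 for ATMG00040 and -0.020 for AOX1D. The slide block gave -0.093 for ATMG00680, scan day -0.077 for ATMG00680 and -0.024 for ATMG01220, and the spike-ins -0.11 and -0.22 for the same loci. For 3BRO against DMSO, normexp gave -0.10 for ATMG00140, -0.28 for ATMG01290 and -0.26 for ATMG00680, and the slide and scan day blocks both gave -0.37, -0.17 and -0.14. For 7NIT against DMSO, the slide block gave -0.43 for ATMG00050, scan day -0.10 for ATMG00050 and -0.16 for ATMG00140, and the spike-ins -0.36 for ATMG00050, -0.41 for ATMG00140 and -0.10 for ATMG00680. With 1 array left out, ATMG01220 ranged from -0.069 to 0.37 and ATMG00010 from -0.42 to 0.024 for 3B7N, and ATMG00140 from -0.089 to 0.22, ATMG01290 from -0.10 to 0.18 and ATMG00680 from -0.10 to 0.24 for 3BRO, all against DMSO.

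Replicate numbers were not taken to pair the arrays, since not every same-numbered pair correlated over 0.1: their deviations correlated from -0.16 to 0.44, with a median of 0.14 and 11 of 18 over 0.1. Different-numbered arrays had a median of -0.059 and 6 of 36 over 0.1, so some shared deviation by number is present. With the replicate block 4 members passed for 3B7N against DMSO, ATMG01170 in addition, beside 18.4% of all genes, and 1 for 3B7N against 7NIT, where ATMG01060 took the place of ATMG00140. The other comparisons had 0.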
